A study of Mus musculus with 2 samples.

Results

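Genes whose transcripts gave more signal in Ccr7 knock-out than in wild-type B cells on both arrays of a dye-swapped pair are described here. A probe was taken where its log2 ratio (knock-out over wild-type), from the scanner program's processed signals, was at or above 0.75 (1.68-fold) on each array. All 4 channels had to be well above background, with no channel scaled up from a low-gain scan and no outlier flag. Of 41174 probes, 21748 met the quality conditions and 58 of these met the ratio condition. Clone, accession and Rik names (13 probes) and the Gbp, Irg, Iigp, Serpin, Socs and Ig name families (6 probes) were then set aside, which left 39 probes for 37 genes.

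B cells were sorted by flow cytometry from peripheral lymph nodes of mice, and their RNA was taken directly, without culture. Wild-type cells came from strain C57BL/6J and knock-out cells from strain B6.129P2(C)-Ccr7tm1Rfor/J, in which Ccr7 is lost in every cell of the animal and not in B cells alone. No other allele, agent or treatment is named for either group, and age, sex and the sorting markers are not given in the sources used here. From 12 sorted RNA samples, 6 per genotype, pools of 3 were made, and each array compared 1 knock-out with 1 wild-type pool. The knock-out pool carried Cy5 on array 1 and Cy3 on array 2. Each array is 1 replicate (n = 2), and the spread between single samples was not measured.

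Ccr7 is a chemokine receptor that leads naive lymphocytes and dendritic cells into lymph nodes and their T-cell zones. B cells that meet antigen with T-cell help can form germinal centres, where they divide, mutate their antibody genes and compete for survival signals. Cytokine receptors that signal through JAK kinases and STAT factors, together with receptors for metabolites, lipids and chemokines, tune where activated B cells go and what they become.

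Nfil3 and Lifr were each picked by a pair of probes, and Plekhh3 had the largest ratios of all, so the first 30 bases of these 60-base probes are shown as the files give them. The members of a pair lie at different positions, so their ratios come from separate target sequences. All positions are on mm8: chr13:52979648-52979707 and chr13:52979932-52979991 (minus strand) for Nfil3, chr15:7131976-7132782 and chr15:7138274-7138333 (plus strand) for Lifr, and chr11:100978794-100978853 (minus strand) for Plekhh3. Which exon a probe lies in was not analysed here.
Nfil3, probe A_52_P500027: cgttatttttgctctattataaagtgtgta
Nfil3, probe A_51_P111492: aatagcaaacttatctgcagaggtggtctc
Lifr, probe A_52_P579352: tgcactaaccagggataccaactgttacgt
Lifr, probe A_52_P297113: tccatcaattccaggcaattcttgattcct
Plekhh3, probe A_51_P228792: cccgagggcagcaatgggtgtggacagttt

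The 39 probes ranged in mean log2 ratio from 0.77 to 3.16, with a median of 1.11 (2.16-fold). The rule used these ratios, so they are given as a description and no test stands on them. Probes at this threshold on both arrays made up 0.267% of the 21748 that met the quality conditions, and the 39 made up 0.249% of the 15654 with a kept name. In the other direction 92 probes (0.423%) were at or below -0.75 on both arrays, and 25 (0.115%) were past 0.75 in opposite directions. At any size 30.4% of the probes were higher on both arrays and 26.5% were lower. Of the 39 probes 12 reached a log2 ratio of 1 on both arrays, and 2, those of Plekhh3 and Ffar2, reached 2. Just inside the threshold were Eif4a2 (0.78 and 0.75 on arrays 1 and 2), Zfp451 (0.87 and 0.75) and Tpm2 (0.75 and 1.60). Just outside were Hemgn (0.75 and 0.95, with a lower ratio of 0.746), Mdfic (0.98 and 0.74) and Ints2 (0.74 and 0.90).

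**Figure D1:**
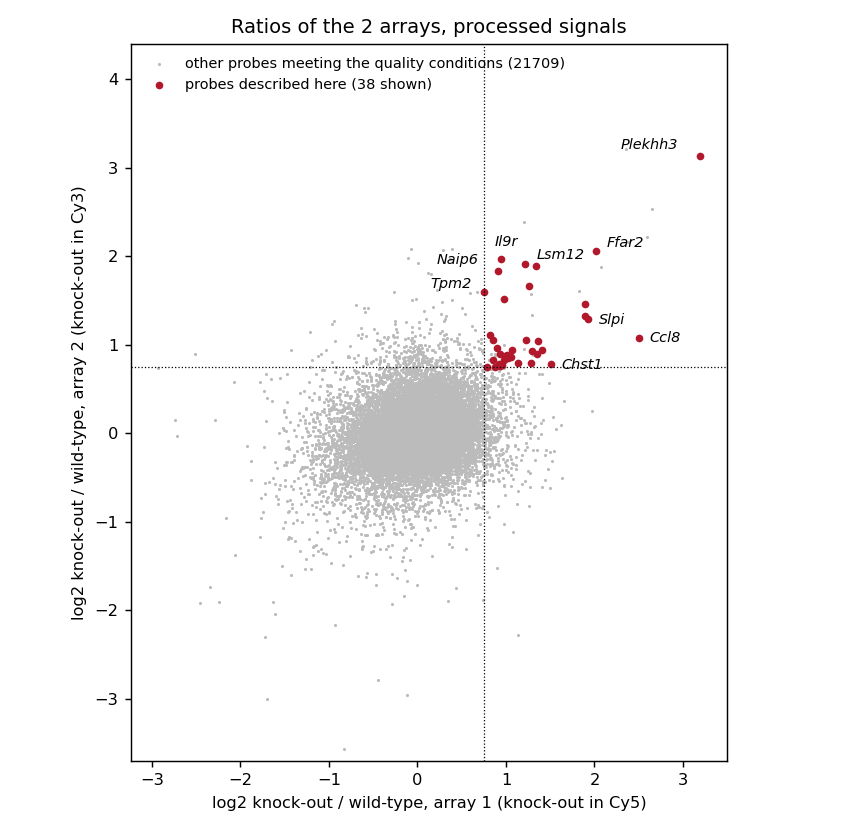
Each point is a probe that met the quality conditions, with its log2 ratio, knock-out over wild-type, on array 1 (horizontal axis) and array 2 (vertical axis). The members (red, 38 of 39 shown) lie up and right of the dotted lines at 0.75, with Plekhh3 farthest out at 3.19 and 3.14; grey points in the same corner are the 19 probes set aside by name.

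Most of these transcripts were dim. In 33 of the 39 the signal was below the median of all probes that met the conditions, and the median member stood at percentile 28.6. The median knock-out signal of the members was 201 on array 1 and 193.4 on array 2, against wild-type medians of 86.15 and 82.19. Only Sypl and Eif4a2 were brighter than the 75th percentile. The ratio was larger on array 1 in 28 probes and on array 2 in 11, and it differed between arrays by a median of 0.29 (0.25 over all probes that met the conditions) and by over 0.5 in 11 probes. Probe GC content had the same median, 41.7%, in the members and in all these probes.

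**Figure D2:**
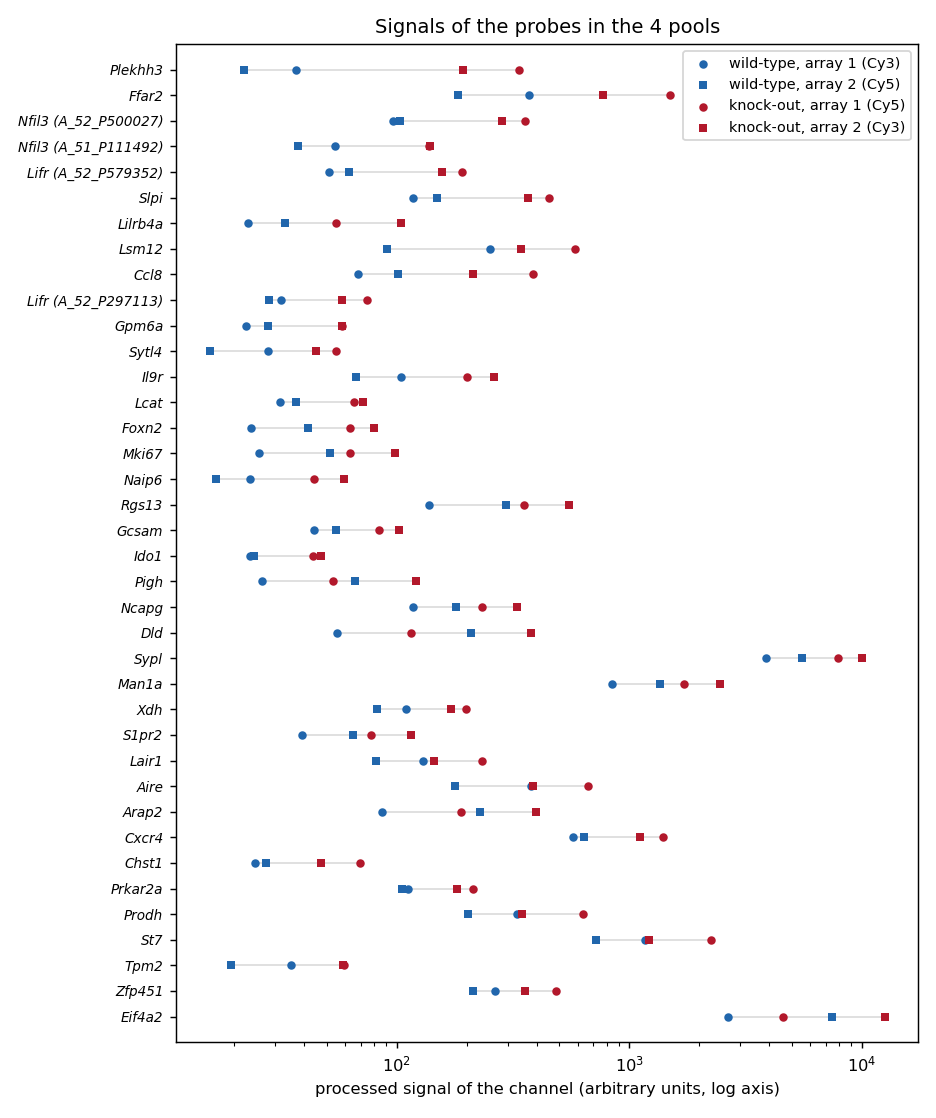
Processed signal (log axis, arbitrary units) of 38 of the 39 probes in the 4 pools, with knock-out in red, wild-type in blue, circles for array 1 and squares for array 2. Within an array the red point lies right of the blue one for every probe, as the rule requires.

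The targeted gene and the cell type markers bear on what the pools held. Ccr7 itself gave signals of 2509 and 2181 in the knock-out against 5335 and 3704 in the wild-type, log2 ratios of -1.09 and -0.76. Its limma adjusted p was 0.0155 (Benjamini-Hochberg over 15113 genes). Whether that probe lies in the deleted part is not known here. All 16 B-cell identity genes were well above background in at least 1 channel, 13 of them so bright that a channel took its value from the low-gain scan. Of the 20 T-cell markers on the array Cd247, Cd28 and Ctla4 were not well above background in any channel, and among 20 myeloid and dendritic markers Clec9a, Siglech and Ccl22 were not. Summed processed signal of the myeloid list was 11312 in the knock-out and 6703 in the wild-type on array 1, and 7846 and 9124 on array 2. The T-cell list summed to 16293 and 14324, then 8509 and 10539. Neither sum leaned the same way on both arrays. The largest part of each came from 1 gene. Lyz2 gave 7068 of 11312 in the knock-out and 2936 of 6703 in the wild-type of array 1, and Lck 10940 of 16293 in that knock-out. Gene by gene, 2 of 12 measured T-cell markers were higher and 5 lower on both arrays, with medians of -0.02 and -0.37. Thy1, a surface protein of T cells, was lower past limma's threshold (log2 ratios of -1.53 and -1.50, adjusted p = 0.0312), and 0 higher and 4 lower markers had an unadjusted p under 0.05. Over all 15113 genes limma gave 611 higher and 1131 lower at an unadjusted p of 0.05 or less. Such counts for this and the other lists stand beside that background, which leans lower. Of 13 measured myeloid and dendritic markers 4 were higher and 2 lower on both arrays, with medians of 0.05 and 0.04. In the stroma and endothelium list 6 of 8 measured genes were higher on both arrays, with sums of 2771 against 2728 and 2551 against 2382, and Pdpn was not well above background. The list's median was 0.26, and limma called 0 of the 8 (2 higher and 0 lower at an unadjusted p under 0.05). Most of the sum was Pecam1 of endothelium, lower at -0.07 and -0.11, while the collagen gene Col1a2 gave 0.79 and 0.46 and the matrix proteoglycan gene Dcn 0.53 and 1.35. The part of such cells in the ratios below was not tested, and in pooled RNA more cells of a kind and more RNA per cell cannot be told apart.

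Of the gene lists, all drawn up with earlier results of these data known, the germinal centre list held the most members, 5 of the 37 genes. Rgs13, Gcsam, S1pr2 and Cxcr4 were among those picked by the rule. Rgs13 and S1pr2 both act on the movement of germinal centre B cells. Rgs13, which shortens signalling from chemokine receptors, gave 351.4 against 138.1 on array 1 and 549.5 against 294.3 on array 2. S1pr2, a sphingosine 1-phosphate receptor that keeps B cells in the follicle centre, gave 77.2 against 39.1 and 115 against 64.56. For both genes the pools of the same array differed in the same direction by 0.83 to 1.35 on the log2 scale, and both pools of array 2 were brighter than their counterparts of array 1. Another, dimmer S1pr2 probe gave only 0.08 and 0.16. Gcsam, an adaptor of germinal centre B cells, gave nearly equal log2 ratios of 0.93 and 0.90. Cxcr4 encodes the receptor for Cxcl12 and marks dark zone cells. Its member probe gave 1393 against 571.1 on array 1 and 1109 against 640.5 on array 2. The brighter Cxcr4 probe, outside the rule, gave log2 ratios of 0.41 and 0.49, less than the 1.29 and 0.79 of the member probe.

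Most other measured genes of the germinal centre list leaned the same way with smaller ratios. Bcl6 and Cxcr5 of this list were scaled up from the low-gain scan and so are not among the measured genes. Bcl6 gave 0.02 and -0.21 on arrays 1 and 2, and Cxcr5 gave -0.17 and 0.19. Of 16 measured list genes, 12 were higher and 2 lower on both arrays, with a median of 0.47 at the brightest probe, where 29.8% of all 15113 genes were higher on both arrays, 26.7% were lower and the median was 0.02. Among the 11 that are not members, 7 were higher on both arrays, 2 were lower and 2 had opposite signs, and their median was 0.29. Limma called 0 of those 11 at an adjusted p of 0.05, and 5 were higher and 0 lower at an unadjusted p under 0.05. Over all 15113 genes 611 were higher and 1131 lower in limma at an unadjusted p of 0.05 or less. Rgs13 passed it (adjusted p = 0.0175), but the rule used the same contrast, so this adds no separate evidence.

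**Figure D3:**
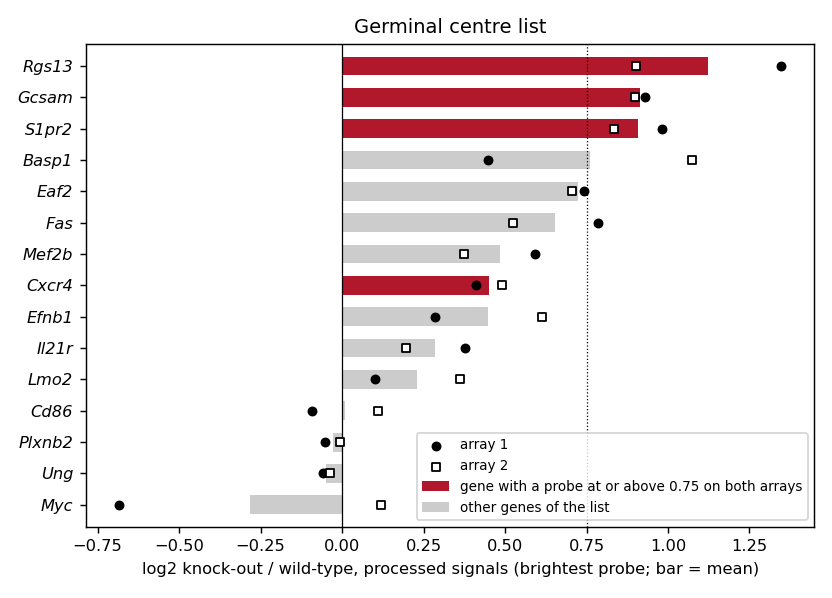
Log2 ratios, knock-out over wild-type, of 15 of the 16 measured germinal centre genes at their brightest probe, with the mean of both arrays as a bar and each array as a point. Red bars are genes with a probe picked by the rule, and the red bar short of the dotted line at 0.75 is Cxcr4, whose brightest probe is not the one picked.

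Mki67 and Ncapg, genes of dividing cells, were the members from the cell cycle. Mki67, which encodes the proliferation antigen Ki-67, had log2 ratios of 1.29 and 0.93 at its member probe and of 1.24 and 0.38 at a brighter one. Ncapg, a subunit of the condensin complex that compacts mitotic chromosomes, had 0.98 and 0.87. The cell cycle list as a whole did not show such ratios. Of its 21 measured genes 11 were higher and 3 lower on both arrays, the list median was 0.34 on array 1 and 0.03 on array 2, and limma called 0 in either direction (3 higher and 2 lower at an unadjusted p under 0.05).

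Cytokine signalling was represented by Nfil3, Lifr and Il9r. Nfil3, a basic leucine zipper repressor that responds to interleukins and is part of circadian clock output, gave 355.1 against 95.79 on array 1 and 283.9 against 103.4 on array 2 at its brighter probe. The other probe gave 137.5 against 54.44 and 139.4 against 37.54. Means of 1.67 ± 0.31 and 1.61 ± 0.39 (SD, n = 2) at the pair of probes differed by less than the spread between arrays. Array 1 had the larger ratio at the brighter probe and array 2 at the dimmer, so the arrays were not ordered the same way even within this gene.

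Lifr encodes the receptor chain for leukaemia inhibitory factor and acts with gp130. Its brighter member probe gave 190.1 against 51.25 on array 1 and 155.9 against 62.08 on array 2, log2 ratios of 1.89 and 1.33. The dimmer one gave 74.34 against 31.74 and 58.27 against 28.05, log2 ratios of 1.23 and 1.05. The remaining measured Lifr probe was also higher on both arrays, at 0.40 and 0.72. Il9r, the receptor chain for interleukin 9, had log2 ratios of 0.95 and 1.97 and thus differed by more than 1 between arrays. Across the cytokine and JAK-STAT list 9 of 20 measured genes were higher and 6 lower on both arrays, with a median of 0.08. Outside the members Gfi1, a transcriptional repressor, was lower past limma's adjusted threshold (adjusted p = 0.0393), and 1 gene from a family set aside by name was higher.

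Receptors at the cell surface included Ffar2, second to Plekhh3 in mean ratio. This G-protein coupled receptor for short-chain fatty acids gave 1495 against 370.7 on array 1 and 769.2 against 183.9 on array 2. Its log2 ratios of 2.01 and 2.06 (mean 2.04 ± 0.04, SD, n = 2; 4.11-fold) were among the most alike of the members. Both pools of array 1 were about as much brighter than those of array 2 in either genotype. In the list of metabolite, lipid and nucleotide receptors 10 of 14 measured genes were higher and 1 was lower on both arrays, with a median of 0.30. Without Ffar2 and S1pr2 these were 8 and 1 of 12, with a median of 0.21, and limma called 0 of the 12 (4 higher and 0 lower at an unadjusted p under 0.05, against 611 and 1131 of all 15113 genes).

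The other surface proteins were inhibitory or of unlike kinds. Lilrb4a, an inhibitory immunoglobulin-like receptor, gave 54.84 against 22.96 on array 1 and 104.6 against 32.98 on array 2. Lair1, an inhibitory collagen receptor, had log2 ratios of 0.85 and 0.83, and a dimmer Lair1 probe gave 1.28 and 0.01. Gpm6a, a membrane glycoprotein best known from neurons, gave 58 against 22.5 and 57.85 against 27.96. Knock-out signals of Lilrb4a and Gpm6a were at most 104.6 in any pool, near the dim end of the array. Lilrb4a and Naip6 have close paralogs, and whether their probes also bind those transcripts was not tested.

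Secreted and innate immune proteins made up a further group. Slpi, a secreted inhibitor of leukocyte proteases, gave 449.7 against 117.8 on array 1 and 365.1 against 148.7 on array 2, a mean log2 ratio of 1.61 ± 0.45 (SD, n = 2). Ccl8, a chemokine of the monocyte chemoattractant group, gave 387.1 against 68.31 and 212.7 against 101.2. The Ccl8 ratios of 2.50 and 1.07 differed by 1.43, the widest gap of the 39 probes. Both genes had their larger ratio on array 1, as did 28 of the 39 probes. On that array alone the summed myeloid markers, with Lyz2 as their largest part, were higher in the knock-out. The part of myeloid cells in the Ccl8 and Slpi ratios was not tested. In the protease inhibitor list 3 of 9 measured genes were higher and 3 lower on both arrays. Wfdc21, another whey acidic protein domain gene, was lower past limma's threshold (adjusted p = 0.00288).

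Naip6, an intracellular sensor of bacterial proteins, had log2 ratios of 0.91 and 1.83 at its member probe, and its other measured probe gave 0.73 and -0.23. Ido1, an interferon-inducible enzyme of tryptophan breakdown, had 0.89 and 0.96 with knock-out signals of 43.35 and 47.07, the former the lowest of any member on array 1. Aire, best known as the regulator of self-antigen expression in thymic epithelium, had 0.82 and 1.11. In the interferon-gamma list 15 of 20 measured genes were higher and 2 lower on both arrays, with a median of 0.39. Of the 20, 7 had a name in the files that the rule sets aside, and 6 of these were higher and 0 lower, with a median of 0.32. Limma called 3 of the 7 higher. Among the 13 with kept names 9 were higher and 2 lower, with a median of 0.46, but 0 reached 0.75 on both arrays and limma called 0 (6 higher and 1 lower at an unadjusted p under 0.05). In lists without a member there were 5 higher and 10 lower of 25 measured B-cell activation genes, 5 and 4 of 14 plasma cell genes, 5 and 8 of 17 surface and adhesion genes, and 3 and 2 of 5 natural killer genes on both arrays. Limma called Ccl3, a chemokine of activated leukocytes, lower in the first of these lists (adjusted p = 0.00664). In the surface and adhesion list it called Ly6c1 lower (adjusted p = 0.0356) and Parm1 higher (adjusted p = 0.00135). In the plasma cell list it called Jchain, the joining chain of polymeric antibodies, higher (adjusted p = 1.54e-04). Parm1 and Jchain were also at the threshold on both arrays and were set aside through older names in the files.

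Plekhh3, a protein with pleckstrin homology, MyTH4 and FERM domains, stood apart in size in the processed signals. Its signal was 335.4 in the knock-out and 36.77 in the wild-type on array 1, and 193.4 and 21.98 on array 2. The log2 ratios of 3.19 and 3.14 gave a mean of 3.16 ± 0.04 (SD, n = 2), 8.96-fold, from processed signals. The mean was 1.86 with normexp and loess, 1.84 with normexp and median centring, and 1.74 from mean signals without background subtraction. Under each of these the arrays were less alike, with the larger ratio on array 1. Median centring gave 2.16 and 1.53, and mean signals without background subtraction gave 2.02 and 1.46. Both wild-type signals met the quality conditions but were below the members' wild-type medians of 86.15 and 82.19. The size of the fold thus depends on the background correction. Other signalling and membrane traffic genes were closer to the threshold. Arap2, a GTPase-activating protein for Arf proteins, had 1.13 and 0.79, and Prkar2a, a regulatory subunit of protein kinase A, had 0.92 and 0.79. Sytl4, a Rab27-binding protein of granule docking, had 0.98 and 1.52, and Sypl, a synaptophysin-like vesicle protein, had 1.03 and 0.86. Sypl had the brightest member probe on array 1, with 7895 against 3867, and a still brighter, scaled-up Sypl probe gave 1.05 and 0.79.

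Enzymes of metabolism and glycosylation had ratios mostly within 0.5 of the threshold. Man1a, a mannosidase that trims N-glycans in the Golgi, had 1.03 and 0.86, and another measured Man1a probe gave 0.60 and 0.66. The brightest Man1a probe, scaled up from the low-gain scan and so outside the quality conditions, gave 0.15 and 0.52. Chst1, a sulfotransferase, had 1.51 and 0.79. Pigh, which acts in the first step of glycosylphosphatidylinositol anchor synthesis, had 1.02 and 0.88, but a brighter measured Pigh probe gave -0.07 and 0.24. Lcat, which esterifies cholesterol in plasma, had 1.06 and 0.95. Among oxidative enzymes Prodh (proline dehydrogenase) had 0.95 and 0.77, Xdh (xanthine dehydrogenase) 0.85 and 1.06, and Dld (dihydrolipoamide dehydrogenase) 1.05 and 0.86. The Dld ratio did not extend to the gene's other probes, as given below.

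RNA-binding, nuclear and structural genes completed the set. Lsm12, an RNA-binding protein of the Lsm family, gave 586.7 against 252 on array 1 and 341.8 against 90.8 on array 2. Eif4a2, an RNA helicase of translation initiation, had the brightest member probe on array 2, with 12580 against 7478. A still brighter Eif4a2 probe, scaled up from the low-gain scan, gave -0.27 and 0.32. Foxn2, a forkhead factor, had log2 ratios of 1.41 and 0.94, but a brighter measured Foxn2 probe gave 0.40 and 0.03. The zinc finger gene Zfp451 had 0.87 and 0.75. St7 had 0.94 and 0.76. Tpm2, a tropomyosin of the actin cytoskeleton, had 0.75 and 1.60 with wild-type signals of 35.15 and 19.27.

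Other probes of the same genes did not all give such ratios. Of the 37 genes 22 had more than 1 probe on the array, and 14 had another one that met the quality conditions, 17 probes in all. None of the 17 reached 0.75 on both arrays, which the rule makes certain for any probe it left out. Higher values on both arrays were found in 10 of them, lower values in 3 and opposite signs in 4. The 9 that were brighter than the member probe had a median mean log2 ratio of 0.09, and the 8 dimmer ones 0.54. Both other Dld probes, with signals from 5696 to 9028, gave -0.12 in the mean, where the member probe had signals from 55.21 to 378.4. Lsm12 had a brighter probe at -0.25 and 0.03, and Zfp451 a brighter one at -0.27 and -0.29. Which transcript forms the probes of a gene detect was not tested. In 23 genes every probe that met the conditions was at or above 0.75 on both arrays: 22 with a single such probe, and Nfil3 with a pair. Of those 22 genes 7 had further probes outside the conditions, among them Eif4a2, whose brighter probe did not share the ratio.

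**Figure D4:**
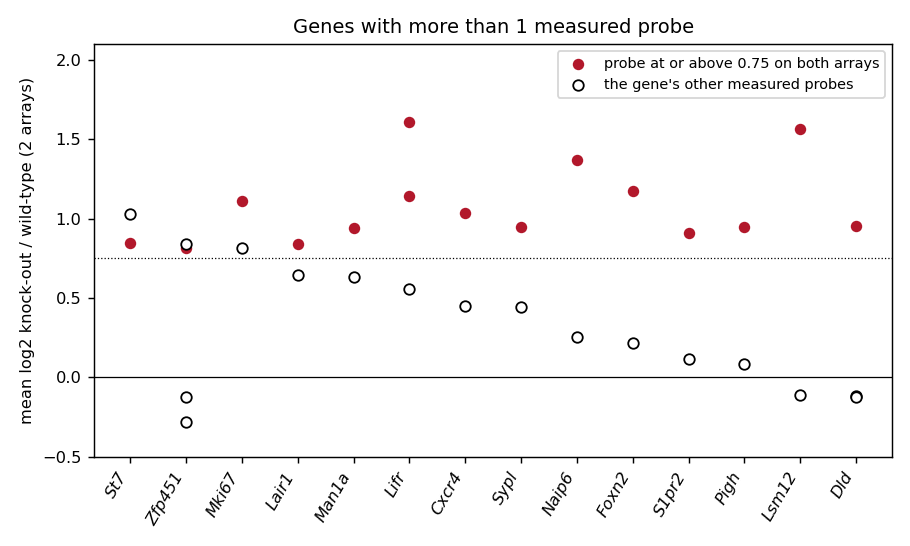
Mean log2 ratio of both arrays for the 14 genes with another measured probe, with picked probes in red and the genes' other probes as open circles. The other probes spread from below 0 (Dld, Lsm12 and 2 of Zfp451) to above the dotted line at 0.75 (St7, Mki67 and 1 of Zfp451).

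Members Plekhh3, Lsm12, Ccl8 and Il9r lie on the chromosome of the targeted gene. Plekhh3 is 2.02 Mb and Lsm12 3.02 Mb from the Ccr7 probe on the side of higher coordinates, and Ccl8 (17.0 Mb) and Il9r (66.9 Mb) lie on the other side. Within 20 Mb of Ccr7 6 of 729 probes that met the conditions (0.823%) were at the threshold on both arrays before names were dropped, 3 of them members. The share was 0.0967% (1 of 1034) farther out on chromosome 11 and 0.257% (51 of 19843) on the other chromosomes. The knock-out strain's name gives 129P2 as the origin of the targeted allele, so sequence around Ccr7 can differ between the groups. Strain origin of this region and loss of the receptor cannot be told apart in this design. Without the 3 members within 20 Mb, 36 remain, on chromosome 11 at Il9r and on the other chromosomes. Whether the strains also differ in sequence at those 36 was not tested.

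In a simple promoter search the members had too few matches for their shares to be told from those of all promoters. RefSeq entries on GRCm38.p6 were found for 31 of the 37 genes (40 start sites), and the 250 bases before each start were read on both strands. The spaced motif TTCNNNGAA, which STAT factors bind, was in 3 of 40 windows (7.5%) against 7.02% of all 32851, and the same half-sites with 4 bases between them in 2 (5%) against 5.85%. No window held more than 1 match. The motif TTANGTAA, which covers sites of Nfil3, was in 0 against 2.06%, and GAAA repeated after any 2 bases, an interferon response pattern, in 1 (2.5%) against 2.98%. A match is a description of letters and not of binding. Windows of Prodh (chr16:18089191-18089440, minus strand), Sytl4 (chrX:133981813-133982062, minus strand) and Lair1 (chr7:4063205-4063454, minus strand) are shown with their match in capitals, as examples of where it lies.
Prodh: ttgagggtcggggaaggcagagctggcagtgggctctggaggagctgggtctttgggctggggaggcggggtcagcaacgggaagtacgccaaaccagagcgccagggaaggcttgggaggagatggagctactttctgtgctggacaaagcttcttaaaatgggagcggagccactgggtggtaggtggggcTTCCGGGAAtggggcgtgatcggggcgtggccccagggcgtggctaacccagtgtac
Sytl4: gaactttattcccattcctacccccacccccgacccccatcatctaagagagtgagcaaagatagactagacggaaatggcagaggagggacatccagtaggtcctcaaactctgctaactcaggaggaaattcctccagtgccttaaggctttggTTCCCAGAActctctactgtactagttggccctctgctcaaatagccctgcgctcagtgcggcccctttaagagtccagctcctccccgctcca
Lair1: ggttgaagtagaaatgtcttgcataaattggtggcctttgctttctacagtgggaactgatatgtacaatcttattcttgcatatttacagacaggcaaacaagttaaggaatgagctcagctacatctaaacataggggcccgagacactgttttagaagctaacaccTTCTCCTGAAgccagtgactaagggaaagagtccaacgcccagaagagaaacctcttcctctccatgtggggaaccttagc

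The matches in Prodh and Sytl4 are of the TTCNNNGAA form and start 57 and 94 bases before the annotated start, and that in Lair1 is of the wider form. Ratios of these genes, 0.95 and 0.77 for Prodh, 0.98 and 1.52 for Sytl4 and 0.85 and 0.83 for Lair1, lay within the range of the members without a match.

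In the limma fit of all 15113 genes, with normexp correction and loess normalization, 102 genes passed an adjusted p of 0.05, of which 37 (0.245%) were higher and 65 (0.430%) lower in the knock-out. Among the 37 member genes 17 passed, all higher, and since the rule used the same contrast nothing is read from that share. From processed signals in place of normexp and loess the fit called 10 genes, 7 higher and 3 lower. The members past the threshold in the first fit included Plekhh3, Ffar2, Nfil3, Slpi, Ccl8, Lifr, Rgs13, Sypl and Man1a. At 0.75 on both arrays 9 of the 39 probes remained with normexp and loess, among them those of Plekhh3, Ffar2, Nfil3 (both), Slpi, Lsm12, Sypl and Man1a. All 39 had a mean of both arrays above 0 under each processing tried, the lowest being 0.31 without background subtraction. The rule picked them for high ratios at these same spots, so nothing is read from their means staying above 0. On each array alone the ratios did not all stay above 0, since Eif4a2 gave -0.07 on array 2 with normexp and median centring.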

How the data were processed

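Scanner output of the authors came from Agilent Feature Extraction 9.5.3.1, as the submitters' processing notes name it. The deposited intensity values are processed signals, which per the file headers had background subtracted and dyes normalized, together with mean and local background signals. The deposited log10 ratio of Cy5 over Cy3 and the deposited log2 value table equalled the processed-signal ratio at 22744 of 22744 spots meeting the quality conditions on each array (tolerance 0.001). No spot was saturated. Per the labels, 20 ng of RNA per condition was amplified.

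Ratios were turned to knock-out over wild-type on array 2. All 39 probes had 1 spot per array. Genes were named through RefSeq accessions, symbols or synonyms, and otherwise kept the file's name.

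Counts over all genes came from limma 3.58.1 in R 4.3.3 (normexp offset 50, loess span 0.3, 4 iterations, dye as a sign in the design, brightest probe per gene, Benjamini-Hochberg at 0.05). The code was tested on data simulated from limma's own variance model, which cannot show whether that model suits these 2 arrays. The 2 arrays limit the precision. Limma's p-values rest only in part on a gene's own spread between pool pairs. That spread is drawn toward a variance shared by all genes, with a prior weight of 10.9 degrees of freedom. Each ratio is taken within an array, so knock-out and wild-type pools are paired by it.

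Values of 1 member gene are not reported here, and it is counted in the totals. All other member genes are named. Those among the first 12 by their lower ratio have channel signals, as do further germinal centre and bright members. From each list genes past the threshold were named, at most 2, and families set aside by name are given as counts, except Jchain, named after its values were seen. Bcl6 and Cxcr5 of the germinal centre list were also named after their values were seen. The members and lists were chosen with earlier results of these data known.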

Additional observations from a re-analysis of the deposited data

How the results depend on the processing

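The count of 39 probes depended on the threshold and on the background correction. It was 172 at a threshold of 0.5 and 12 at 1. With normexp and loess it was 9, with normexp and median centring 5, and without background subtraction 8. With 1 array alone it ranged from 253 to 322, and 23 genes had every measured probe at the threshold, an alternative chosen after seeing the data. The median ratio of the 39, 1.11, became 0.70, 0.56 and 0.66 under the same 3 corrections and ranged from 0.95 to 1.05 with 1 array. Most members are dim, and at dim probes an offset or retained background makes ratios smaller by construction. The bright members Sypl and Eif4a2 fell with median centring instead. On array 2 they gave 0.10 and -0.07 there, against 0.88 and 0.74 with normexp and loess.

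The 102 genes called by limma became 10 with processed signals, 10 with the value table, 18 with median centring (6 higher, 12 lower), 159 with a robust prior that follows intensity, 15 with the mean of a gene's probes (9 higher, 6 lower) and 18 with scaled-up and partly dim spots kept (12 higher, 6 lower). Without the replicate block, with channels unpaired from their array, limma called 0, and 19 higher and 69 lower genes had an unadjusted p of 0.05 or less. Why these counts differ was not tested. Median centring moved the median of all genes to -0.19. There the germinal centre list had 0.18 and the cytokine and cell cycle lists -0.11 and -0.07. Of 15 lists 7 changed the sign of their median under at least 1 alternative, among them those 2 and not the germinal centre list. That list holds 5 member genes, picked by the rule for high ratios, so nothing is read from its kept sign. Its median without them was not computed under these alternatives.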

Other observations

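A further 18 named probes of 17 genes met the ratio condition with the knock-out well above background on both arrays and the wild-type not well above it on at least 1. They passed only through the knock-out, the group in which they are high. Neither their share of all probes nor the number with the reverse pattern was counted, so nothing is read from the 18. In 7 the wild-type was well above it on neither array, so its signal has only a bound and no fold is given. Among these was Cxcl12, the stromal chemokine that binds Cxcr4, with knock-out signals of 34.3 and 34.2 and wild-type signals of 7.96 and 10.9. Tgfb2, a transforming growth factor, had 17.0 and 23.1 against 8.55 and 9.04. The aldehyde oxidase gene Aox4 had 119 and 84.9 against 22.8 and 11.1, the brightest knock-out signal on array 1 of the 18. Cuedc1 had 86.3 and 88.2 against 19.8 and 8.42, and its probe lies 10.96 Mb from that of Ccr7, on the side of lower coordinates. Camta1, Evc and Osbpl3 were the others. These genes were named after their values were seen.

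In the other 11 probes the wild-type was not well above background on 1 array. A pair of them belonged to Enah, an actin regulator, with knock-out signals of 50.3 and 85.0 at the brighter probe. Emp2, an epithelial membrane protein, and F11r, a tight junction protein, had knock-out signals of 64.1 and 55.2, and of 30.4 and 35.2. Gfi1b, a repressor of erythroid and megakaryocytic cells, had 26.6 and 29.2. The other 6 were probes of Afdn, Dcun1d2, Gatm, Htra1, Laptm4b and Ptk2.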
